A study of Mus musculus with 5 samples.

Results

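The distal convoluted tubule (DCT) is the short stretch of the nephron between the thick ascending limb and the connecting tubule. Its cells were chosen by counts of unique molecular identifiers (UMIs, 1 per captured transcript) from 4 droplet single-cell RNA libraries of mouse kidney. A cell was counted as DCT if it had at least 200 genes, at most 50% mitochondrial UMIs, at least 3 UMIs of Slc12a3, at most 2 of Slc12a1 or Aqp2, at most 1 of Atp6v1g3 or Egfl7, and 0 of Ptprc. This gave 243 DCT cells of 13823 kept cells. The mice were C57/BL6, 8 weeks old, and the study used unilateral ureteric obstruction (UUO), a blockage of one ureter that can be undone. The 4 groups were a sham operation at day 0, obstruction for 2 days (UUO day 2), obstruction for 7 days (UUO day 7), and obstruction that was undone, sampled 7 days later at experimental day 14 (reversed UUO). Each group was 1 library of 3 pooled mice, prepared from dead-cell-excluded, sorted kidney cells with 10x 3' chemistry. No test between time points was possible for this reason, and a time point cannot be told apart from its library. Intervals on levels, shares and ratios cover counting error only, and the spread between mice is not known.

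DCT cells take up sodium chloride through the thiazide-sensitive cotransporter NCC, encoded by Slc12a3, under the control of WNK kinases, and they set the final reabsorption of magnesium. Parvalbumin marks the early part of the segment. Calbindin, the calcium channel TRPV5 and parts of the aldosterone response appear along its later part and in the connecting tubule.

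The DCT cells numbered 43, 41, 76 and 83 in sham, UUO day 2, UUO day 7 and reversed UUO, the order used for every set of 4 values here. Their median depth was 3638, 7299, 5623 and 6056 UMIs per cell, and their non-mitochondrial UMIs summed to 98454, 273601, 483000 and 469252. The sham sum is the smallest. The median mitochondrial share of DCT cells was 40.7%, 22.9%, 13.1% and 29.8%. Levels are therefore given as counts per 1000000 non-mitochondrial UMIs (CPM). Non-tubule cells (at least 2 UMIs of Ptprc or Egfl7; median depths 2576, 8290, 5975 and 4953) are given for comparison. Their level of a gene can hold free RNA of the droplets and their own expression, which were not told apart. Among kept cells 100 barcodes occurred in more than 1 library, and 3 DCT cells carried one of them.

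Slc12a3 (chr8:94329201-94366214, plus strand, GRCm38) chose the cells, so its level is a description. It stood at 6196, 2153, 1789 and 3280 CPM, and the median cell held 12, 12, 8 and 17 of its UMIs. In all, 22 DCT cells lay just inside the threshold at exactly 3 UMIs, and 36 cells lay just outside it at 2. Tmem52b, a DCT marker outside the rule, was at 943, 844, 1142 and 1594 CPM in the cells just inside and at 452, 1081, 1579 and 750.4 CPM in those just outside. Of 297 cells with enough Slc12a3, 32 were over the limit for Ptprc, 14 for Egfl7, 11 for Atp6v1g3, 2 for Slc12a1 and 1 for Aqp2.

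The label was checked against 3 markers outside the rule. Tmem52b (chr6:129512555-129519227) was at 2397, 1064, 1828 and 2308 CPM in DCT cells and at 17.8 to 67.4 CPM in non-tubule cells. Calb1 (chr4:15881264-15908064), encoding calbindin, was at 4083, 47.5, 445 and 1014 CPM, and Pvalb (chr15:78191114-78206400), encoding parvalbumin, at 1087, 3.65, 0 and 266 CPM. The marker set was thus complete in sham and after reversal, while on UUO day 2 Pvalb was down to 1 UMI and on UUO day 7 it was at 0. Of the thick ascending limb's defining genes, Enox1 was at 0 UMIs in DCT cells of all 4 libraries and Cldn16 in all but UUO day 7. The 5 thick ascending limb markers summed to 4591, 1539, 2609 and 3316 CPM in DCT cells, nearly all of it Umod, and to 32730, 20071, 15029 and 23206 CPM in thick ascending limb cells. The 8 leukocyte markers summed to 60.9, 556, 2072 and 865 CPM in DCT cells, 71.4, 529, 1994 and 899 CPM in thick ascending limb cells and 4234, 16007, 19400 and 16290 CPM in non-tubule cells, with Ptprc at 0 by the rule.

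To describe what sets DCT cells apart from their neighbours, UMIs were summed per library and compared with 600 thick ascending limb cells (at least 3 UMIs of Slc12a1) and 186 principal cells (at least 3 UMIs of Aqp2) chosen under otherwise equal limits. The 4 libraries were the replicates and entered as blocks, and genes of the rules and mitochondrial genes were not tested. Against thick ascending limb cells, 265 of 7669 genes (3.46%) were higher in DCT cells and 339 (4.42%) were lower, by edgeR's quasi-likelihood test at a Benjamini-Hochberg adjusted p under 0.05. Without the UUO day 7 library 114 were higher and 149 lower, and without the reversed library 176 were higher. Of 11 calcium and magnesium transport genes tested, 8 were higher and 1, Egf, was lower (5 and 1 by DESeq2). Calb1 was higher by a log2 fold change of 6.97 ± 0.26 (SE, n = 4 libraries, edgeR adjusted p = 8.0e-14), in 4 of 4 libraries. Trpm6, the apical magnesium channel, was at 234, 65.8, 68.3 and 98.0 CPM in DCT cells and at 0, 2.46, 8.27 and 12.0 CPM in thick ascending limb cells, a log2 fold change of 3.91 ± 0.40. The summed level was higher in DCT cells in every library. Cnnm2, a basolateral protein of magnesium handling, was higher by 1.51 ± 0.35. S100g, the small calbindin, was higher by 2.53 ± 0.73 in 3 of 4 libraries, the exception being UUO day 2. The S100g call was lost by DESeq2 (log2 2.55) and without the sham (1.40), UUO day 7 (2.68) or reversed library (2.24). The Cnnm2 call was lost without the sham (1.08) or reversed library (1.36) and with at most 20% mitochondrial UMIs per cell (0.32), a limit that left 2 libraries.

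Transcription factors divided between the segments. The homeobox genes Lhx1 and Emx1 were higher in DCT cells by log2 fold changes of 7.49 ± 0.39 and 6.11 ± 0.32. Gata3 (6.80 ± 0.48), Sall3 (4.91 ± 0.45) and Tfap2a (3.42 ± 0.48) were also higher, and the Iroquois genes Irx1 (-5.97 ± 0.44) and Irx2 (-5.93 ± 0.47) were lower, each in the same direction in all 4 libraries. Of 19 listed distal nephron factors tested, 4 were higher (3.46% over all genes) and 6 lower (4.42%). Gata3 was at 152, 51.2, 122 and 119 CPM in DCT cells and at 0, 1.64, 0 and 0 CPM in thick ascending limb cells. Only called genes with the same direction in all 4 libraries were ranked by size. Among them the 10 largest differences upward were Lhx1, Scube3, Calb1, Gata3, Scnn1g, Slitrk4, Emx1, Lrrn1, Sall3 and Pgam2, and downward Tmem207, Slc5a1, Enox1, Cldn16, Nos1, Bmp3, Irx1, Irx2, Tmem158 and Sim2. Scube3 and Scnn1g had 0 UMIs in thick ascending limb cells of all 4 libraries, so no fold is given for them. Pgam2, a muscle-type phosphoglycerate mutase of glycolysis, was at 955, 132, 188 and 435 CPM in DCT cells and at 19.5, 7.38, 8.27 and 14.7 CPM in thick ascending limb cells.

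Of 14 tested regulators of NCC, 4 were higher in DCT cells than in thick ascending limb cells (Wnk1, Wnk4, Klhl3 and Hsd11b2; 3.46% over all genes) and 2 lower (4.42%), or 3 and 2 by DESeq2. The kinase Wnk1 was at 4246, 567, 1901 and 2853 CPM against 1129, 143, 221 and 572 CPM in thick ascending limb cells, a log2 fold change of 2.26 ± 0.19. Klhl3, encoding the adaptor through which WNK kinases are degraded, was higher by 3.07 ± 0.39 and Wnk4 by 0.66 ± 0.18. Ppp1r1a, encoding an inhibitor of protein phosphatase 1, was lower, at -1.06 ± 0.23. The Wnk4 call was lost by DESeq2 (log2 0.66) and without the sham (0.64), UUO day 7 (0.56) or reversed library (0.56), and the Ppp1r1a call without UUO day 7 (-1.0). Kl, encoding klotho, was higher by 1.66 ± 0.28 in 3 of 4 libraries, a call that DESeq2 did not make (1.61). Of 21 nuclear-encoded respiratory chain genes, 0 passed edgeR's adjusted test in either direction and 3 were lower at an unadjusted p under 0.05, while DESeq2 called 0.

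Against principal cells, 308 of 5488 genes (5.61%) were higher in DCT cells and 355 (6.47%) were lower in the same edgeR test. Without the reversed library 200 were higher, and without UUO day 2 220 were lower. Of 11 calcium and magnesium transport genes tested, 6 were higher and 2, S100g and Trpv5, were lower (4 and 1 by DESeq2, which lost Trpv5 at -2.29). Fxyd2, the gamma subunit of the sodium pump, was higher by a log2 fold change of 3.25 ± 0.20 and Trpm6 by 3.47 ± 0.41, each in all 4 libraries. Of 10 late DCT and connecting tubule genes tested, 6 were lower and 0 higher (0 higher also at an unadjusted p under 0.05 and by DESeq2). They included Hsd11b2 (-4.94 ± 0.42), the enzyme that keeps glucocorticoids off the aldosterone receptor, and the sodium channel subunits Scnn1b (-3.13 ± 0.29) and Scnn1g (-3.85 ± 0.27). Calb1 differed by -1.06 ± 0.37, with an edgeR adjusted p of 0.07 that missed the threshold. Pth1r, the parathyroid hormone receptor, was higher by 3.55 ± 0.22 and Ppp1r1a by 4.46 ± 0.28.

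Among called genes with the same direction in all 4 libraries, the 10 largest differences from principal cells upward were Fam107a, Ank2, 4930461G14Rik, Prox1, Abca13, Uroc1, Col5a2, Sfrp1, Gpx6 and Sall3, and downward Fxyd4, Col26a1, Kcne1, Aqp3, Aqp4, Pde1c, Muc20, Mgat4c, Mcoln3 and Apela. Fam107a, Ank2 and Prox1 had 0 UMIs in principal cells of all 4 libraries. Uroc1, encoding urocanase of histidine breakdown, was at 264, 51.2, 29.0 and 153 CPM in DCT cells and was also higher than in thick ascending limb cells, by 2.21 ± 0.26. Sfrp1, a secreted modulator of Wnt signalling, was at 1402, 227, 519.7 and 887 CPM, and its difference from thick ascending limb cells of -0.12 ± 0.15 did not pass the edgeR test (adjusted p = 0.73).

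**Figure D1:**
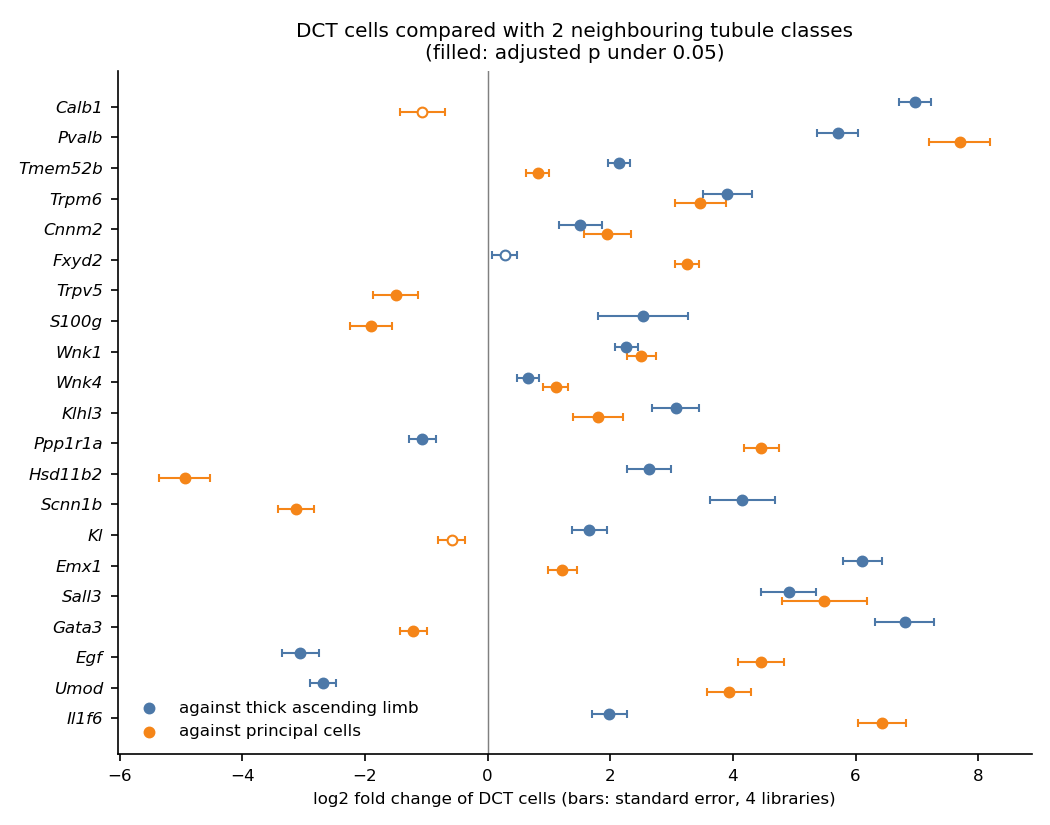
Log2 fold change of DCT cells against thick ascending limb cells and against principal cells for 21 genes, with standard errors over 4 libraries and filled points for an edgeR adjusted p under 0.05. Trpm6, Wnk1, Klhl3, Emx1 and Sall3 lie above 0 in both comparisons, and Egf, Umod and Ppp1r1a lie below 0 against the thick ascending limb and above 0 against principal cells. Trpv5 has no point against the thick ascending limb, where its UMIs were 0.

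Egf and Umod, genes of secreted proteins that are strongest in the thick ascending limb, were intermediate in DCT cells. Egf was lower than in thick ascending limb cells (-3.05 ± 0.30) and higher than in principal cells (4.45 ± 0.38), and Umod gave -2.69 ± 0.21 and 3.94 ± 0.36, all 4 past the edgeR threshold. Umod stood at 4439, 1510, 2576 and 3256 CPM in DCT cells, 164, 398, 107 and 128 CPM in principal cells and 266, 371, 232 and 283 CPM in non-tubule cells. The DCT level was above both in every library. In the plot of log2 fold changes against both neighbours, Ppp1r1a shared this pattern, while S100g, Hsd11b2, Scnn1b and Gata3 lay on opposite sides in the other order.

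DCT cells made up 1.09% of kept cells in sham (exact binomial 95% interval 0.792 to 1.47), 1.86% on UUO day 2 (1.34 to 2.51), 1.71% on UUO day 7 (1.35 to 2.13) and 2.56% after reversal (2.05 to 3.17). Of the pairs of time points, only sham and reversed UUO have intervals that do not overlap. Among the 3 distal classes together, DCT cells were 15.7%, 14.7%, 36.7% and 30.7%. With every cell thinned to 1000 UMIs and the Slc12a3 minimum lowered from 3 UMIs to 1, the shares were 2.31%, 2.40%, 2.25% and 3.40%, and the parts of depth and of the lower minimum were not told apart. With a limit of 20% mitochondrial UMIs the shares were 0.154%, 1.19%, 1.27% and 1.25%, with 1 DCT cell left in sham.

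Between time points 4 pairs were compared. For sham and UUO day 2, of 1944 genes with at least 30 UMIs over both libraries, 326 (16.8%) were at least 2-fold higher on UUO day 2 and 283 (14.6%) at least 2-fold lower. The split moved with the scaling, to 546 and 152 with mitochondrial UMIs in the total and to 408 and 214 with TMM factors, which moved the median log2 ratio by 0.16 here and by 0.17 between reversal and sham. From UUO day 2 to day 7, 227 of 4071 genes (5.58%) were higher and 140 (3.44%) lower, or 313 and 97 over all UMIs. From UUO day 7 to reversal, 188 of 4982 (3.77%) were higher and 119 (2.39%) lower. Over all UMIs that split turned to 109 and 219, and with at most 20% mitochondrial UMIs per cell to 81 and 111, out of the 3498 genes then measured. Between reversal and sham, 416 of 3168 (13.1%) were higher and 240 (7.58%) lower, or 635 and 86 over all UMIs and 543 and 156 with TMM factors.

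Promoter windows are shown for Pvalb and Egf, which were lower under obstruction, and for Lcn2 and Spp1, which were higher, so that both pairs can be compared. Each is the 250 bases before the RefSeq start (GRCm38.p6), 5′ to 3′ on the strand of the gene. Pvalb, Egf and Spp1 have 2 starts in the table, and the one nearest to the annotated start of the gene is shown. They lie at chr15:78206401-78206650 (minus) for Pvalb, chr3:129755323-129755572 (minus) for Egf, chr2:32387740-32387989 (minus) for Lcn2 and chr5:104434861-104435110 (plus) for Spp1. The Lcn2 window lies inside the longer span given for the gene below, which comes from another annotation. Capitals mark the letters TATAAA and CCAAT, searched on both strands.
Pvalb: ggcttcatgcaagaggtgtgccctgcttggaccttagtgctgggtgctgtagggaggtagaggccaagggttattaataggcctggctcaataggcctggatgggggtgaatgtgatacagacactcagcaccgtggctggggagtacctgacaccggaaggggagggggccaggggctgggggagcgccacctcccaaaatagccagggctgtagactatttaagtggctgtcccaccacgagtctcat
Egf: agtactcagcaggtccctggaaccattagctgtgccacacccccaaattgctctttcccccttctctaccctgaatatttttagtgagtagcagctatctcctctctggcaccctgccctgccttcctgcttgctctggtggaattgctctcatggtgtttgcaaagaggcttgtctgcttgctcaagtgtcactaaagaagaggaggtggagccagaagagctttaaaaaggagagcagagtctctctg
Lcn2: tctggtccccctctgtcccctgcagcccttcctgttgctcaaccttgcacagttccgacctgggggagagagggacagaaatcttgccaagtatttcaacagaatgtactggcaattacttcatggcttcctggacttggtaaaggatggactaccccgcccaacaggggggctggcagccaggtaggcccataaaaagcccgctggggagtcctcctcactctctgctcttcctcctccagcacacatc
Spp1: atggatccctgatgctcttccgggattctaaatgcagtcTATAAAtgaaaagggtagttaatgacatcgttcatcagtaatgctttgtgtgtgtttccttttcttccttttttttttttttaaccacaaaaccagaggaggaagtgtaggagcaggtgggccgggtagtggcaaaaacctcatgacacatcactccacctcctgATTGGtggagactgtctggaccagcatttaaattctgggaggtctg
Of these, the Spp1 window held both motifs, TATAAA as written and CCAAT as its reverse complement, and the other windows held neither. TATAAA occurred in 12.4% and CCAAT in 33.8% of all 32851 promoter windows of the table. A match describes letters only, and no match says only that they are not in this window.

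Several calcium and magnesium genes were far lower on UUO day 2. Pvalb had 107, 1, 0 and 125 UMIs in 23, 1, 0 and 28 cells, or 1087 CPM in sham (95% Poisson interval 891 to 1313) and 266 CPM after reversal (222 to 317). Egf, whose product raises TRPM6 activity and spares magnesium, was at 3271, 36.5, 35.2 and 1545 CPM in DCT cells and at 209, 21.5, 7.20 and 59.8 CPM in non-tubule cells. Both levels under obstruction were below that of sham non-tubule cells, and the DCT level was above the non-tubule level within every library. Calb1 was at 47.5 CPM on UUO day 2 and 445 CPM on UUO day 7, so unlike Egf it was higher on the later obstruction day. Of the 12 listed genes, 7 had enough UMIs for UUO day 2 against sham, 5 of them were at least 2-fold lower (14.6% over all genes) and 0 higher. Of the 7, 3 (Pvalb, Egf and Calb1) reached 30 UMIs through sham alone, where they were high, and 2 reached it in both libraries, of which 1 passed 2-fold. Trpm6 was at 65.8 CPM against 234 in sham. Fxyd2 was at 12970, 7683, 6271 and 6772 CPM and passed 2-fold in none of the 4 comparisons.

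**Figure D2:**
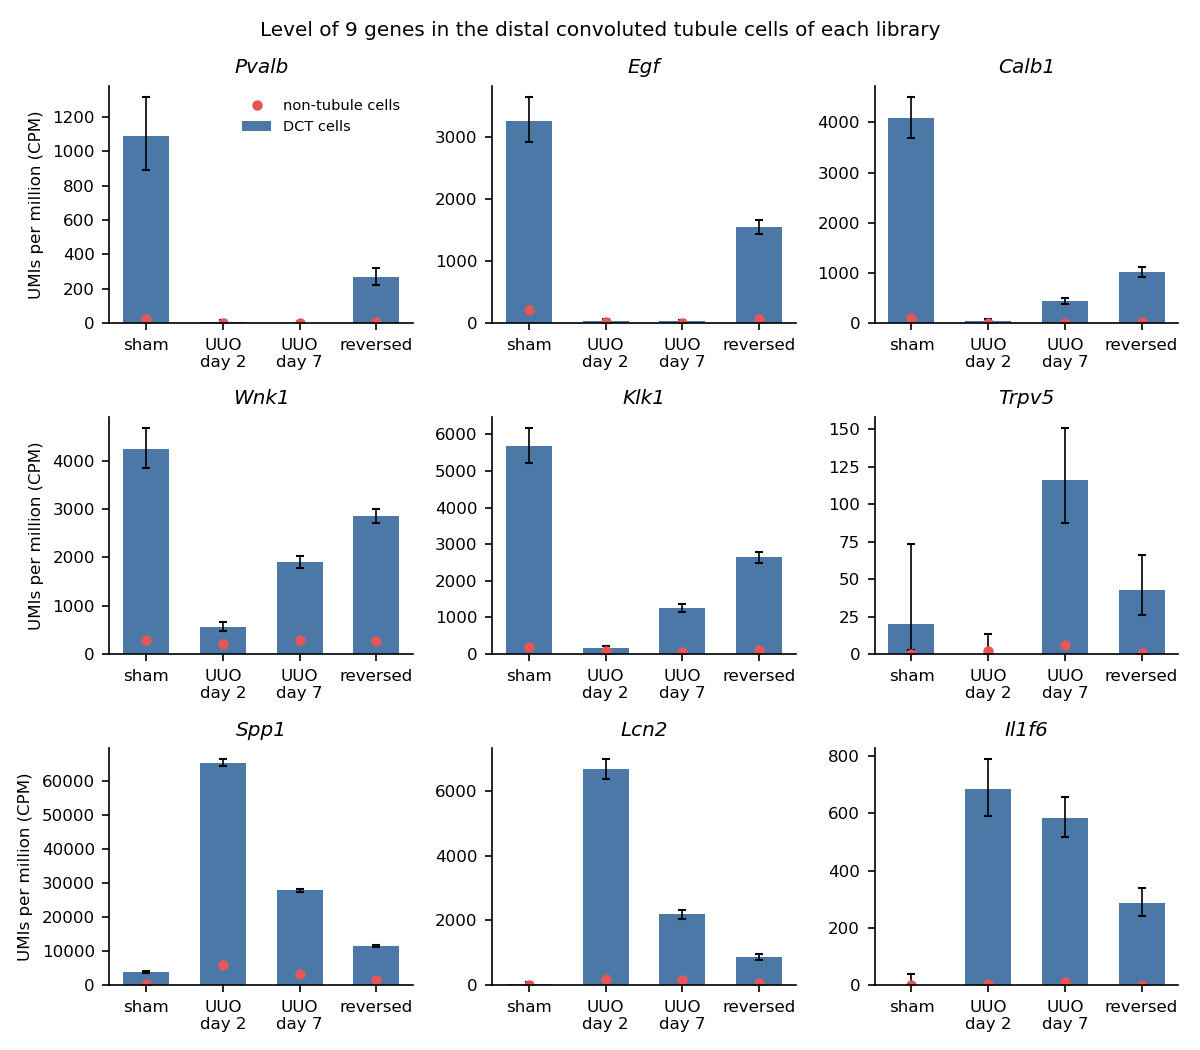
Level (CPM) of 9 genes in the DCT cells of each library as bars, with 95% Poisson intervals for counting error, and the level in non-tubule cells of the same library as red points. Pvalb and Egf are near 0 on both obstruction days, Calb1, Wnk1 and Klk1 are lowest on UUO day 2, and Spp1 and Lcn2 are highest on UUO day 2.

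With every cell thinned to 1000 UMIs, mitochondrial ones included, Egf was seen in 67.4%, 2.44%, 6.58% and 47.0% of DCT cells, against 76.7%, 17.1%, 19.7% and 69.9% before thinning. In non-tubule cells the thinned shares were 4.92%, 0.712%, 0.551% and 4.82%. Since mitochondrial shares differ, the thinned sham cells keep fewer non-mitochondrial UMIs than the others. A UMI of Pvalb was seen in 53.5% of sham DCT cells and 33.7% of reversed ones, or 34.9% and 18.1% after thinning, against 1.23% and 0.338% of thinned non-tubule cells. Without thinning, 1 of 41 DCT cells on UUO day 2 had a UMI, and 0 of 76 on UUO day 7, which limits cells with a UMI, not cells expressing the gene, to 3.95%. Lcn2 gave 2.33%, 82.9%, 51.3% and 18.1% of thinned DCT cells and 0.41%, 11.8%, 6.54% and 2.96% of thinned non-tubule cells.

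Of the 17 listed salt and potassium transport genes, 8 were measured on UUO day 2 against sham, 3 of them were at least 2-fold lower (14.6% over all genes) and 0 higher. Their median log2 ratio was -0.81, or -0.44 over all UMIs. Kcnj1, the ROMK potassium channel, was at 1046, 208, 308 and 573 CPM. Kcnj10, the basolateral potassium channel through which chloride exit is driven, was at 315, 91.4, 116 and 162 CPM. Both were among the 3, and in both the reversed level lay between those of UUO day 7 and sham. Kcnj10 reached 30 UMIs through sham alone, where it was higher, and 1 of the 8 genes did so through UUO day 2 alone. In both libraries 5 genes reached 30 UMIs, and 2 of these passed 2-fold.

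Among regulators of NCC, Wnk1 was at 4246, 567, 1901 and 2853 CPM, a log2 ratio of -2.90 for UUO day 2 against sham. Wnk4 was at 467, 102, 104 and 298 CPM and Ppp1r1a at 1727, 252, 346 and 793 CPM. Klhl3 rested on 15, 2, 21 and 56 UMIs, or 152, 7.31, 43.5 and 119 CPM. Of 6 regulators measured, 3 (Wnk1, Wnk4 and Ppp1r1a) were at least 2-fold lower on UUO day 2 (14.6% over all genes) and 1, the phosphatase subunit Ppp1ca, was higher (16.8%) (3 and 2 with TMM factors, 3 and 3 over all UMIs). The median was -0.70. From UUO day 7 to reversal 3 of 11 were higher (Wnk4, Klhl3 and Ppp1r1a; 3.77% over all genes) and 0 lower. With at most 20% mitochondrial UMIs per cell the log2 ratio of Ppp1r1a turned to -0.19. Klhl3 (21 and 56 UMIs) reached 30 UMIs through the reversed library alone, and Wnk4 in the UUO day 2 count (46 and 28 UMIs) through sham alone.

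Among hormone receptors, Kl was at 1889, 102, 354 and 778 CPM and Vdr, the vitamin D receptor, at 366, 91.4, 153 and 166 CPM. Pth1r was at 508, 599, 627 and 358 CPM and passed 2-fold in none of the comparisons. Emx1 was at 376, 51.2, 147 and 183 CPM and Sall3 at 91.4, 25.6, 60.0 and 81.0 CPM, the latter from 9, 7, 29 and 38 UMIs. Both were lowest on UUO day 2. Tfrc, the transferrin receptor, was at 366, 21.9, 16.6 and 141 CPM. Kap, a proximal tubule gene, was among the 8 largest differences downward on UUO day 2 and after reversal against sham, at 4601, 102, 164 and 876 CPM in DCT cells, 3016, 193, 136 and 772 CPM in thick ascending limb cells and 2160, 154, 303 and 952 CPM in non-tubule cells. The 12 proximal tubule markers summed to 16272, 2540, 462 and 4134 CPM in DCT cells and to 9290, 1693, 839 and 4093 CPM in non-tubule cells, so they were highest in sham and lowest on UUO day 7 in both, and their part in the DCT results was not tested.

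Injury genes took the opposite course. Spp1 (chr5:104435118-104441050), encoding osteopontin, was at 3819, 65391, 27818 and 11397 CPM in DCT cells and at 223, 5898, 3364 and 1546 CPM in non-tubule cells. Lcn2 (chr2:32384633-32388252), encoding lipocalin-2, had 3, 1824, 1055 and 404 UMIs in 1, 40, 57 and 24 cells, or 30.5, 6667, 2184 and 861 CPM. Clu, encoding clusterin, was at 2245, 15121, 8896 and 4989 CPM, with 208, 742, 471 and 294 CPM in non-tubule cells. The summed levels of all 3 were highest on UUO day 2, lower at each later time and above sham after reversal. In cells over 20% mitochondrial UMIs, though, Clu was at 1790 CPM after reversal against 2249 in sham, and Spp1 at 3764 against 3840. Of 26 listed injury genes, 16 were measured on UUO day 2 against sham, 14 were at least 2-fold higher (16.8% over all genes) and 0 lower. Of the 16, 12 reached 30 UMIs through UUO day 2 alone, 5 of them with 0 UMIs in sham, so the filter fixes part of this count. In both libraries 3 genes reached 30 UMIs, and 2 of these passed 2-fold. Of the 11 with at least 1 UMI in both, 9 were higher. The median log2 ratio of the 16 was 3.61, against 0.11 over all genes, or 2.66 with genes at 0 in sham set to their bound. After reversal against sham 12 of 15 were higher (13.1% over all genes) and 0 lower, with medians of 2.13 and 1.60, and 8 of the 11 with UMIs in both libraries were higher. Of the 15, 11 reached 30 UMIs through the reversed library alone, and 2 of the 3 that did so in both passed 2-fold.

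Several injury genes had 0 UMIs in sham DCT cells, where the floor of 3 UMIs per library is 30.5 CPM. S100a6, a calcium-binding protein gene, was at least 24.2-fold higher on UUO day 2. Tnfrsf12a, the receptor of the cytokine TWEAK, was at least 8.28-fold higher, Cp (ceruloplasmin) at least 8.16-fold and Havcr1 (kidney injury molecule-1) at least 3.48-fold. Of the Cp UMIs of UUO day 2, 83.8% came from 3 cells. Havcr1 was held by 0, 8, 12 and 1 cells. S100a6 stood at 0, 738, 482 and 514 CPM in DCT cells and at 1014, 1677, 925 and 804 CPM in non-tubule cells, so it was higher in the latter in every library. The keratins Krt8 (50.8, 508, 464 and 181 CPM) and Krt18 (20.3, 245, 145 and 183 CPM) and the claudin Cldn4 (20.3, 135, 240.2 and 132 CPM) were also higher at each later time than in sham. Of 10 junction and epithelial genes measured on UUO day 2 against sham, 6 were higher (16.8% over all genes) and 0 lower. Of the 10, 7 reached 30 UMIs through UUO day 2 alone, and of the 2 that did so in both libraries 0 passed 2-fold.

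Il1f6 (chr2:24215418-24225702, plus strand), encoding interleukin-36 alpha, was among the named genes higher on UUO day 2. It had 0, 187, 282 and 135 UMIs, or 0, 683, 584 and 288 CPM, and the UUO day 2 level was at least 22.4-fold above sham. The transcripts sat in 0, 16, 19 and 9 cells, and the 3 highest cells of the last 3 libraries held 69.0%, 76.6% and 83.7% of them. Every cell with Il1f6 also had Lcn2. Thick ascending limb cells stood at 0, 179, 239.9 and 17.4 CPM, principal cells at 0, 13.1, 0 and 0 CPM and non-tubule cells at 0, 2.55, 9.58 and 1.57 CPM. DCT cells were higher than thick ascending limb cells by a log2 fold change of 1.99 ± 0.28 (edgeR adjusted p = 4.7e-05) in 3 of 4 libraries. Adamts1, a secreted protease, was at 0, 471, 201 and 102 CPM, at least 15.5-fold higher on UUO day 2.

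Set against the neighbours, injury genes divided. Lcn2 gave 0.20 ± 0.20 against thick ascending limb cells (edgeR adjusted p = 0.66) and 0.18 ± 0.24 against principal cells (0.72), so no difference was shown. Spp1 was lower than in thick ascending limb cells (-0.62 ± 0.18, a call lost by DESeq2 at -0.61 and without the UUO day 7 library at -0.44 or the reversed one at -0.56, and with at most 20% mitochondrial UMIs per cell at -0.82) and higher than in principal cells (1.70 ± 0.25). Clu was higher than in thick ascending limb cells by 1.59 ± 0.34, a call that DESeq2 did not make (1.67), and Sox9, a factor of tubule repair, by 2.35 ± 0.29. Of 24 injury genes tested against thick ascending limb cells, 6 were higher and 4 lower (2 and 3 by DESeq2), where 3.46% and 4.42% of all genes were. Of 22 against principal cells, 10 were higher and 3 lower (2 and 3 by DESeq2), where 5.61% and 6.47% of all genes were. Of 18 immediate-early and heat-shock genes, 9 were lower than in principal cells (6.47% over all genes) and 1, Hspb1, was higher (5.61%), or 4 and 0 by DESeq2. Egr1 was among the 9, and its call was lost by DESeq2 (-2.09) and without the UUO day 2 library (-1.19).

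**Figure D3:**
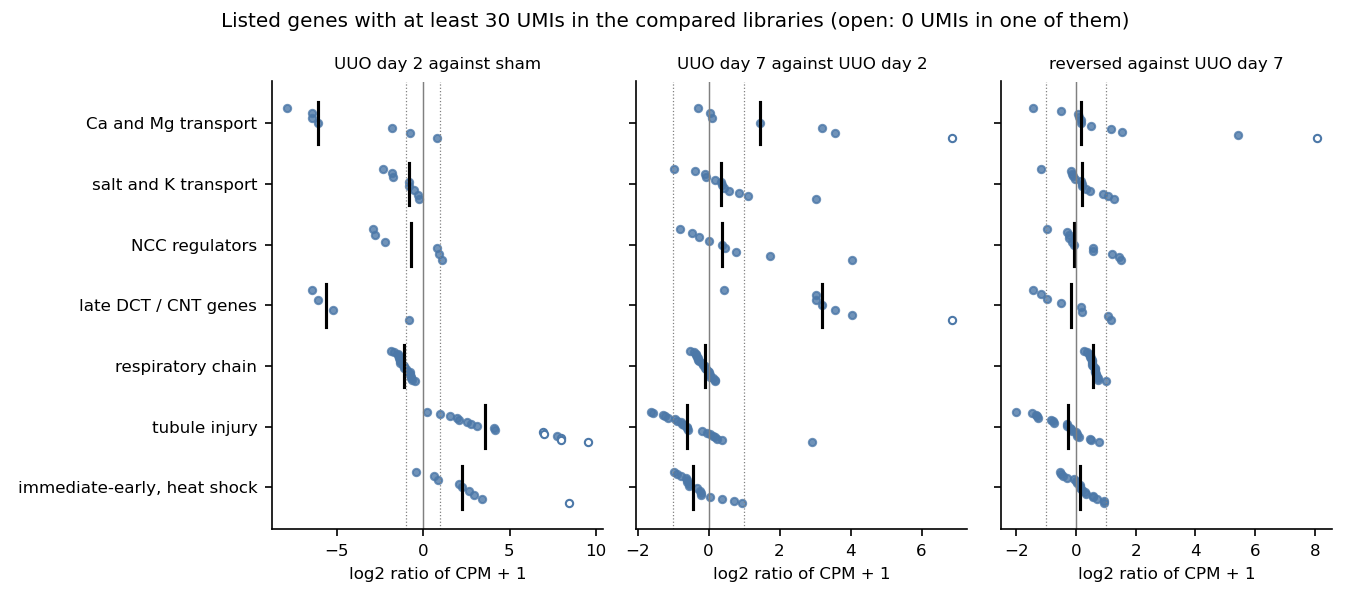
Log2 ratio of CPM + 1 for each listed gene with at least 30 UMIs over both libraries, by list, in 3 comparisons. Black bars are medians, dotted lines mark 2-fold, and open points are genes at 0 UMIs in 1 library, whose position depends on the added 1 CPM; each median depends on which genes passed the filter, and that of the injury list is 3.61 on UUO day 2 against sham.

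Some genes of mitochondrial energy metabolism were at least 2-fold lower on UUO day 2, as the plot of listed genes shows. Of 21 nuclear-encoded respiratory chain genes, 12 were at least 2-fold lower (14.6% over all genes) and 0 higher, with a median log2 ratio of -1.12. With TMM factors 9 were lower, beside 214 of all 1944 genes, and over all UMIs 6, beside 152. Cox4i1, a cytochrome oxidase subunit, was at 4936, 1985, 1961 and 2743 CPM and Sdha, of succinate dehydrogenase, at 772, 241, 248 and 349 CPM. Between UUO day 2 and day 7, and between UUO day 7 and reversal, 0 of the 21 passed 2-fold, with medians of -0.11 and 0.57. With every cell weighted equally, 8 of the 21 were higher after reversal than on UUO day 7 (median 0.93), beside 387 of all 4982 genes. The mitochondrial share of the same cells was 40.7% in sham and 22.9% on UUO day 2, and its part in this result was not tested. Of 11 creatine, citrate cycle and mitochondrial biogenesis genes, 7 were lower (14.6% over all genes), among them the regulators Esrra (173, 54.8, 43.5 and 46.9 CPM) and Ppargc1a (284, 98.7, 199 and 232 CPM). Of 11 glycolysis and lactate genes, 1, Ldha, was higher and 0 lower, below the 16.8% and 14.6% over all genes, with a median log2 ratio of -0.08 that turned to 0.08 with TMM factors and 0.28 over all UMIs.

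On UUO day 7 several genes of the late DCT and connecting tubule stood well above UUO day 2. Of 7 measured, 6 were at least 2-fold higher (5.58% over all genes) and 0 lower, with a median log2 ratio of 3.20. Of the 7, 5 reached 30 UMIs through UUO day 7 alone, so the filter fixes part of this count and median. Trpv5, the apical calcium channel, had 2, 0, 56 and 20 UMIs in 2, 0, 21 and 10 cells and was at least 10.6-fold higher on UUO day 7 than on day 2. Hsd11b2 was at 20.3, 14.6, 257 and 132 CPM and Scnn1b had 5, 3, 47 and 20 UMIs. These 3 were highest on UUO day 7. S100g was at 14382, 216, 2557 and 1801 CPM, and 79.3% of its sham UMIs came from 3 cells. Klk1, encoding tissue kallikrein, was at 5678, 154, 1257 and 2645 CPM. Ptges, a prostaglandin E synthase gene, was at 60.9, 7.31, 91.1 and 51.1 CPM.

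These transcripts shared cells. Of the 21 cells with Trpv5 on UUO day 7, 13 had at least 2 UMIs of Calb1, against 4 of the other 55. Hsd11b2 was in 17 of the 21 and in 17 of the 55. The cells with Trpv5 held 91.6% of the Calb1 UMIs and 96.3% of the S100g UMIs of this library. For each gene, the 3 highest cells of the library held 56.7% (Calb1) and 58.4% (S100g) of its UMIs. Principal cells had 2494 CPM of Hsd11b2 there, against 257 CPM in DCT cells. How many of these cells lie in the connecting tubule, which begins without a sharp border, was not tested.

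After reversal the early markers were found again beside lasting injury genes. Pvalb was at least 42.9-fold higher than on UUO day 7, and Egf was higher by a log2 ratio of 5.42. In cells with at most 20% mitochondrial UMIs both levels lay closer, with Egf at 88.7 against 37.3 CPM and Pvalb at 16.9 CPM (4 UMIs) against 0. Tmem52b was at 2308 CPM, within its sham interval of 2101 to 2723. Against sham, Calb1 and Pvalb were at least 2-fold lower, at log2 ratios of -2.01 and -2.02, and stayed so under the 7 alternatives that gave a value, which leave out the 20% mitochondrial limit. Egf (-1.08), Kl (-1.28) and Trpm6 (-1.24) were also lower but lay within 2-fold over all UMIs (-0.76, -0.96 and -0.92) and without the deepest 5% of cells (-0.83, -0.90 and -0.83). Egf did so with TMM factors (-0.92) and equal cell weights (-0.44) as well, and with at least 5 Slc12a3 UMIs per cell so did Egf (-0.99) and Kl (-0.98). The higher reversed levels of Calb1, Cnnm2, Kl and Ppp1r1a than on UUO day 7 did not hold in cells with at most 20% mitochondrial UMIs, where the log2 ratios were -0.15, -0.12, -0.47 and -0.19. Wfdc15b, a whey acidic protein family gene, was at 1645, 172, 108 and 852 CPM and Gpx6, a glutathione peroxidase, at 163, 18.3, 6.21 and 100.2 CPM, both among the 8 largest differences upward from UUO day 7. Tagln, also among them, had all 53 of its reversed UMIs in 3 cells.

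In the reversed library, cells with UMIs of Egf and cells with Lcn2 overlapped in part. Of its 83 DCT cells, 58 had at least 1 UMI of Egf, and Lcn2 was in 9 of these and in 15 of the other 25. By a stricter count, 46 had at least 2 UMIs of Egf, 24 had Lcn2, and 1 had both. Of the 17 cells with at least 2 UMIs of Pvalb, 0 had a UMI of Lcn2, which allows a share of up to 17.6% of cells with a UMI, against 36.4% of the other 66 (exact binomial interval 24.9 to 49.1). Of non-tubule cells in this library, 11.8% had a UMI of Lcn2. On UUO day 2 40 of 41 DCT cells had it. Levels of both genes ran with the mitochondrial share, a split chosen after the values were seen. The 26 cells with at most 20% had Lcn2 at 1668 CPM, Spp1 at 18888, Il1f6 at 570.1, Egf at 88.7, Pvalb at 16.9 and Wnk1 at 1368. Of the Lcn2 UMIs of the reversed DCT cells, 64.1% came from 3 cells, all of them among these 26. The 57 cells above 20% had Lcn2 at 38.7 CPM, Spp1 at 3764, Il1f6 at 0, Egf at 3029, Pvalb at 521 and Wnk1 at 4367.

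In the mitochondria-rich reversed cells, Spp1, Egf and Wnk1 lay close to the 3819, 3271 and 4246 CPM of sham, and Lcn2 was below the 70.3 CPM of non-tubule cells. Their Pvalb and their Calb1 (1854 CPM) were below sham. Median depth was 7140 UMIs in the 26 cells and 5904 in the 57. Thick ascending limb cells of this library divided in the same way, with Egf at 1756 CPM in 76 cells with at most 20% and 14664 CPM in 77 cells above, and Lcn2 at 1208 and 54.1 CPM. On UUO day 2 the 23 mitochondria-rich DCT cells and the other 18 lay closer, with Spp1 at 62568 and 66926 CPM, Egf at 31.1 and 39.5 and Lcn2 at 4430 and 7883. On UUO day 7 the 23 mitochondria-rich DCT cells had Lcn2 at 359 CPM against 2551 in the other 53, and Calb1 at 1608 against 211. Egf was low in both, at 24.7 and 37.3 CPM.

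**Figure D4:**
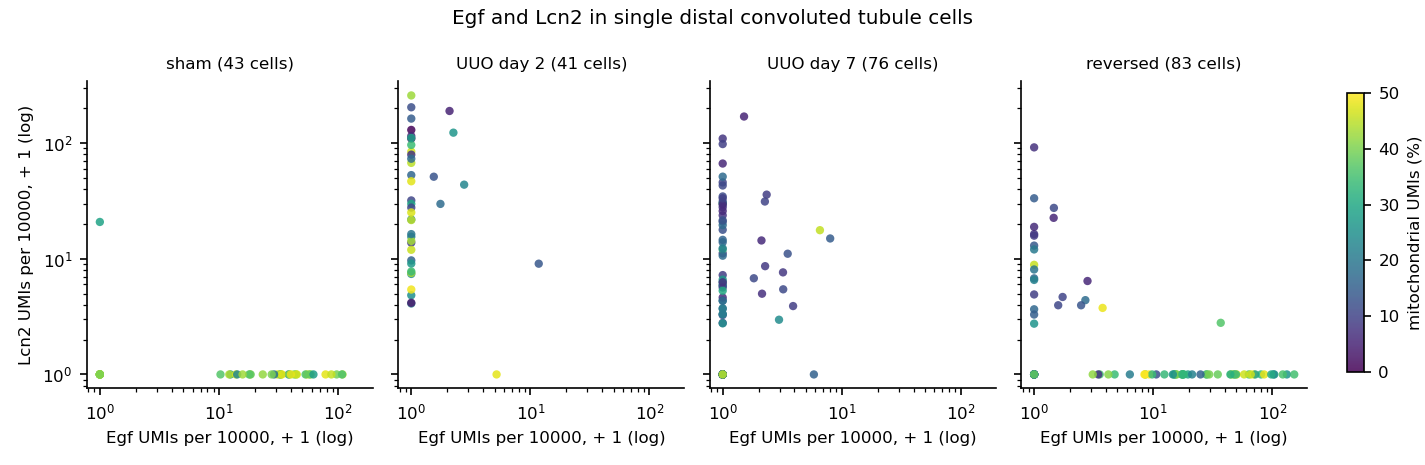
Egf and Lcn2 UMIs per 10000 non-mitochondrial UMIs plus 1 in every DCT cell (log axes), 1 panel per library, coloured by the mitochondrial share of the cell. Sham cells spread along the Egf axis and UUO day 2 cells along the Lcn2 axis, and the 83 reversed cells spread along both, with 9 cells holding UMIs of both genes and 1 of them at least 2 UMIs of Egf.

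DCT cells with and without Pvalb differed within sham and within the reversed library. In sham 21 cells had at least 2 Pvalb UMIs and 20 had 0, and in the reversed library 17 and 55. The cells with Pvalb were deeper, at a median of 4357 against 2843.5 UMIs in sham and 7384 against 5933 after reversal, and the part of depth in the split was not tested. Only these 2 libraries had 10 cells on both sides, so values are given without a test. Egf was higher in the cells with Pvalb, at 4572 against 1606 CPM in sham and 3784 against 821 CPM after reversal. Cnnm2 was at 239 against 73.0 CPM in sham, with overlapping intervals, and at 247 against 52.5 CPM after reversal, where they did not overlap (153 to 377 and 30.6 to 84.0). Trpm6 followed the same pattern, at 294 against 170.3 CPM and 270.3 against 58.6 CPM. Umod was at 5858 against 2555 CPM in sham and 6240 against 1959 CPM after reversal.

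The later-segment genes S100g and Klk1 had lower summed levels in the cells with Pvalb. S100g was at 771 against 33432 CPM in sham and 212 against 2533 CPM after reversal, with 79.3% and 69.0% of its UMIs in 3 cells. At least 2 UMIs of S100g were in 28.6% of sham cells with at least 2 Pvalb UMIs against 45.5% of all others, and in 23.5% against 31.8% after reversal, with overlapping exact binomial intervals in both. Klk1 was at 1212 against 11971 CPM and 1774 against 3237 CPM. The summed level of Calb1 was 2497 against 6375 CPM in sham and 1751 against 901 CPM after reversal, and 42.5% of its sham UMIs and 54.4% of its reversed ones came from 3 cells. By cells, at least 2 UMIs of Calb1 were in 76.2% of the sham cells with at least 2 Pvalb UMIs and 45.5% of all others, and in 76.5% and 19.7% after reversal, so the sham order turned with the measure. Spp1 was at 2148 against 6278 CPM in sham, where 50.8% of its UMIs came from 3 cells, and at 2879 against 13364 CPM after reversal. Without the 3 sham cells that had the most UMIs of each gene, a setting chosen after the data were seen, Spp1 was at 1925 against 2659 CPM in sham, Calb1 at 2497 against 2998, Klk1 at 1212 against 5576 and S100g at 771 against 8255. Cnnm2 then came to 112 against 73.0 CPM in sham, and Trpm6 turned there, to 156 against 170.3 CPM. The same setting in the reversed library gave 1751 against 112 CPM for Calb1, 212 against 810.2 for S100g, 1774 against 2264 for Klk1 and 2879 against 10831 for Spp1. In the reversed library Lcn2 was at 1102 CPM in the cells with 0 Pvalb UMIs against 0 in those with at least 2. Not every cell with Lcn2 was among the former, since it was also found beside a single Pvalb UMI. The median mitochondrial share of the cells with 0 Pvalb UMIs was 23.7%, against 34.1%. Position along the segment and injury state cannot be told apart there.

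**Figure D5:**
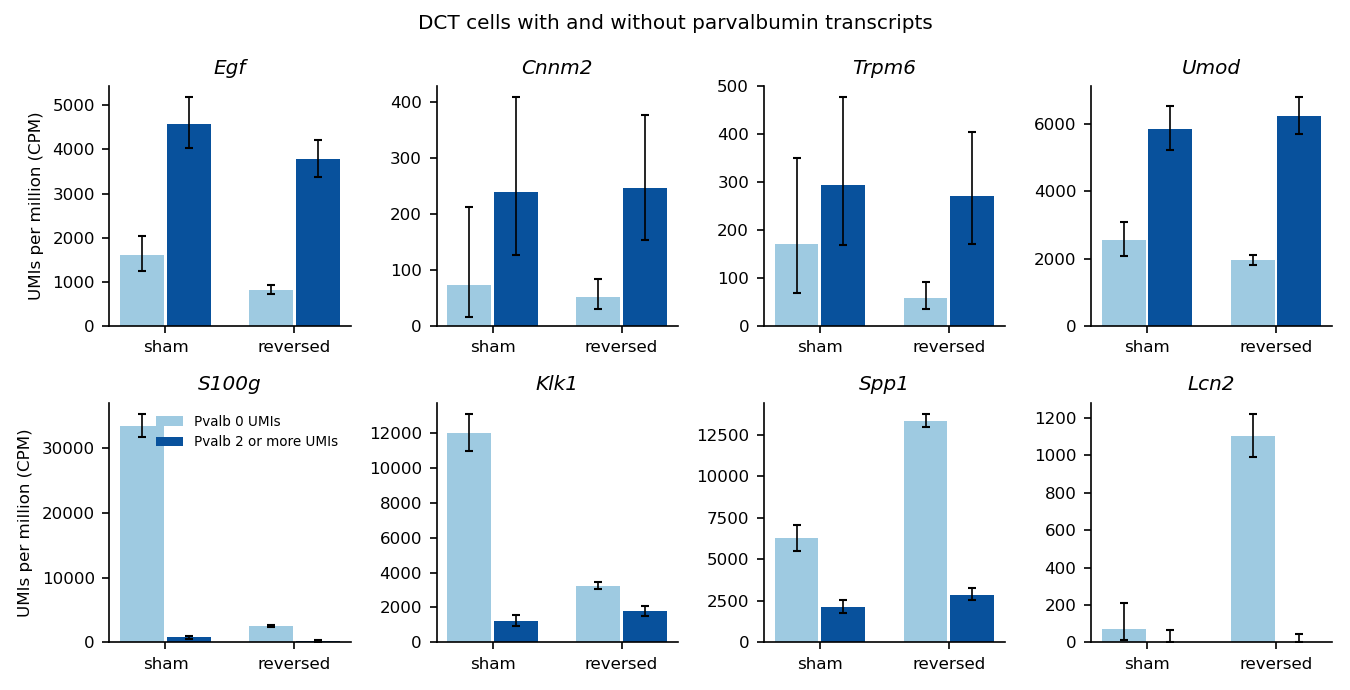
Level (CPM with 95% Poisson intervals) of 8 genes in DCT cells with 0 and with at least 2 Pvalb UMIs, in the sham and the reversed library. Egf, at 4572 against 1606 CPM in sham, is higher in the cells with Pvalb in both libraries, and S100g is lower in both.

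Of 9 immediate-early and heat-shock genes measured on UUO day 2 against sham, 6 were at least 2-fold higher (16.8% over all genes) and 0 lower, and of 13 after reversal against sham, 9 were higher (13.1%) and 0 lower. On UUO day 2, 7 of the 9 reached 30 UMIs through that library alone, and of the 2 that did so in both 0 passed 2-fold. After reversal, 11 of the 13 did so through the reversed library alone, and of the 2 in both 0 passed 2-fold. Of the measured genes with at least 1 UMI in both libraries, 5 of 8 and 6 of 10 were higher, and the genes left out were at 0 in sham. Hspb1, a small heat-shock protein gene, was at 0, 344, 199 and 379 CPM. The metallothionein Mt2 was at 376, 1517, 768 and 488 CPM, and the antioxidant genes Gclc, Gpx1, Sod1, Sod2 and Cat were at least 2-fold lower on UUO day 2, 5 of 11 measured (14.6% over all genes). Over all UMIs this list turned to 4 higher and 2 lower, beside 546 higher and 152 lower of all 1944 genes. Of 12 interferon and antigen presentation genes, 6 were higher on UUO day 7 than on day 2 (5.58% over all genes) and 0 lower, and from UUO day 7 to reversal 5 of 13 were lower (2.39%) and 0 higher. Of the 12, 5 reached 30 UMIs through UUO day 7 alone, and of the 7 that did so in both libraries 2 passed 2-fold. Of the 13, 2 did so through UUO day 7 alone, and of the 10 that did so in both 4 passed 2-fold. Cd74, the invariant chain of class II antigen presentation, was at 142, 274, 1737 and 735 CPM in DCT cells, 110.3, 301, 1688 and 888 CPM in thick ascending limb cells and 9626, 13068, 27576 and 20097 CPM in non-tubule cells. The leukocyte markers given above moved with it in the same libraries, and their part in it was not tested. The class I genes H2-K1 (152, 380.1, 501 and 371 CPM) and H2-D1 (122, 299.7, 472 and 362 CPM) were higher than sham at each later time.

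On UUO day 2 against sham, 4 of the 19 listed cell cycle genes were measured. Of these, 3 (Tubb5, Stmn1 and Rrm2) were at least 2-fold higher (16.8% over all genes) and 0 lower. All 4 reached the UMI minimum of the comparison through UUO day 2 alone and 0 did so in both libraries. The filter thus fixes part of this count. Transcripts of Top2a and Cenpf were rare. Top2a was found in 0, 3, 2 and 2 cells and Cenpf in 0, 8, 6 and 0. The 0 of 43 in sham, at a median of 3638 UMIs per cell, limits cells with a UMI to 6.98% and not cells expressing these genes. Of the Cenpf UMIs of UUO day 7, 82.2% came from 3 cells. Of 12 cell cycle genes tested against thick ascending limb cells, 6 were higher by edgeR (3.46% over all genes) and 1 by DESeq2, with 0 lower by both and 1 lower at an unadjusted p under 0.05. Of 10 tested against principal cells, 0 passed by edgeR or DESeq2 in either direction, with 1 higher at an unadjusted p under 0.05. The other genes named by size followed no single list. Higher on UUO day 2 than in sham was Pea15a, a death-domain adaptor gene, at 0, 274, 126 and 109 CPM. Lower on UUO day 7 than on day 2 were Mmp7, a matrix protease gene at 0, 102, 8.28 and 2.13 CPM with its 28 UMIs of UUO day 2 in 2 cells, and Errfi1, a feedback inhibitor of the epidermal growth factor receptor, at 60.9, 175, 37.3 and 72.5 CPM. The same direction held for Slc34a1, Gdf15, Aebp1, Tmem27, Steap2 and Polr2l, and AI838599 was higher. From UUO day 7 to reversal Rab27a was higher, and Cenpf, Lockd, Cp, Oplah, Efemp1, Slitrk4, Cldn19 and Tmem55a were lower.

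After reversal against sham, the membrane protein gene Emp2 was at least 3.15-fold higher and the mucin Muc1 at least 2.45-fold, each from 0 UMIs in sham. Emp2 stood at 0, 58.5, 112 and 95.9 CPM and Muc1 at 0, 106, 74.5 and 74.6 CPM, and Sprr1a, Zfp664 and Net1 were the others, each with 33 UMIs against 0. Of the Sprr1a UMIs, 27 came from 1 cell. Downward, Slc27a2, a fatty acid transporter of the proximal tubule, was at 416, 40.2, 10.4 and 49.0 CPM in DCT cells and 166, 30.4, 26.6 and 55.9 CPM in non-tubule cells. Lrp2, encoding the endocytic receptor megalin, was at 264, 32.9, 6.21 and 59.7 CPM and 110.1, 16.9, 11.3 and 52.5 CPM. Ugt2b38, Guca2b and Sult1d1 were also lower, and these 5 genes stood in sham at 2.06 to 2.50 times their level in non-tubule cells.

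Of the listed cytokine and growth factor genes, Hbegf was at 10.2, 183, 97.3 and 70.3 CPM and Gdf15 rested on 0, 42, 12 and 7 UMIs.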

How the data were processed

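The deposited files were matrices of UMI counts per gene and cell for 4 droplet libraries, made with Cell Ranger and STAR on GRCm38 (mm10), per the submitters' processing notes; their versions are not given in the sources used here. The authors deposited raw, not normalized, counts of 28692 gene rows. One plate-based sample of 768 wells mixed all time points and was not used here. Results for some listed genes are not reported here. Cells, classes and limits were as given in the report, and the members and gene lists were chosen with earlier results of these data known.

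UMIs were summed per library and class. Time points were compared as log2 ratios of CPM over non-mitochondrial UMIs with a pseudocount of 1 CPM, among genes with at least 30 UMIs, with exact conditional binomial intervals; at least 2-fold counted as a difference. Genes named by size were the 8 largest in each direction with at least 50 CPM and at least 2 times the non-tubule level, the interval on 1 side of 0. Mitochondrial, ribosomal protein and haemoglobin genes, genes with Gm or Rik names and the genes of the rule were left out of this ranking. Classes were compared with edgeR 4.0.16 (TMM, filterByExpr, quasi-likelihood, library as block; R 4.3.3), tested on simulated data, and the 10 largest folds in each direction with 1 sign in every library were named. DESeq2 1.42.0, no filter, leaving out each library, other minimums, pseudocounts, scalings, mitochondrial and Slc12a3 limits, thinning to 1000 UMIs (with a Slc12a3 minimum of 1 UMI for the shares of DCT cells) and removal of the deepest 5% of DCT cells were the alternatives. The splits by mitochondrial share and the counts of cells holding gene pairs were chosen after seeing the data. No doublet caller was run, and the rule's upper limits were the guard against doublets. Python 3.11.15, numpy 2.4.6, scipy 1.17.1 and pandas 2.3.3 were used.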

Additional observations from a re-analysis of the deposited data

Results flagged for a closer look

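Among the differences of DCT cells from their neighbours in the 4 libraries, 40 genes were checked for 1 library far from the other 3 (by Dixon's gap over range), and 3 were found. Chance flags about 1 in 20 such groups. The log2 difference of Gata3 from thick ascending limb cells was 4.31 on UUO day 2, that of Cldn16 was -4.68 on UUO day 7, and that of Aqp3 from principal cells was -11.24 in sham, each apart from the other libraries. All 3 turn on libraries at 0, so their size depends on the value added before the logarithm. Gata3 in thick ascending limb cells was at 0 CPM in all libraries but UUO day 2 (1.64), Cldn16 in DCT cells at 0 in all but UUO day 7 (6.21), and Aqp3 in DCT cells at 0 in sham.

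Some genes differed by at least 2-fold in opposite directions in DCT cells and a neighbouring class over the same pair of libraries, a difference that was not tested. Between sham and UUO day 2, S100g had a log2 ratio of -6.05 in DCT cells and 1.90 in thick ascending limb cells. Gclc, of glutathione synthesis, had -1.01 and 1.91. Umod had -1.56 in DCT cells and 1.27 in principal cells. Between UUO day 2 and day 7, Kl had 1.78 in DCT cells and -1.01 in thick ascending limb cells, and C3 had -1.56 in DCT cells and 3.72 in principal cells. From UUO day 7 to reversal, Ckb, a creatine kinase gene, had 1.56 in DCT cells and -1.05 in principal cells. The DCT value of Ckb turned to -0.34 with at most 20% mitochondrial UMIs per cell. Egr1 had 6.36 in DCT cells and -1.06 in principal cells for reversal against sham, where the DCT value depends on the pseudocount because sham had 0 UMIs, and the bound is at least 2.66-fold.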

How the results depend on the processing

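With 1 library per time point, the order of the DCT levels over time has no replicate check, and the 98454 sham UMIs limit genes below about 30.5 CPM there. No paired analysis was possible because each group has 1 library; the class tests already had library as block, and the Pvalb test and its alternatives were not run because fewer than 3 libraries held 10 cells on both sides.

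DCT shares with a 20% mitochondrial limit were 0.154%, 1.19%, 1.27% and 1.25%, without upper limits 2.27% on UUO day 7, and after thinning with a Slc12a3 minimum of 1 UMI 2.31% in sham, 2.25% on UUO day 7 and 3.40% after reversal. Counts of genes past 2-fold, higher and lower, over all UMIs were 546 and 152 for UUO day 2 against sham, 109 and 219 for reversal against UUO day 7 and 635 and 86 for reversal against sham. With at least 100 summed UMIs they were 94 and 96 of 488 genes, 36 and 23 of 1076 (UUO day 7 against day 2), 31 and 26 of 1399, and 76 and 48 of 753, so fewer genes were measured. A pseudocount of 10 CPM gave 144 higher for UUO day 7 against day 2 and 112 higher for reversal against UUO day 7. Equal cell weights gave 226 lower for UUO day 7 against day 2, and 387 and 224 for reversal against UUO day 7, where 8 of 21 respiratory chain genes were then higher. The 20% limit gave 81 of 3498 higher for reversal against UUO day 7, and TMM gave 156 lower for reversal against sham.

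Against thick ascending limb cells DESeq2 called 126 higher and 170 lower, no filter 567 of 16237 lower, and the 20% limit, on 2 libraries, 223 of 6455 lower. Leaving out each library gave 114 to 247 higher and 149 to 312 lower. Against principal cells DESeq2 called 152 and 223, and leaving out each library gave 200 to 297 higher and 220 to 367 lower. The 20% limit could not be fitted there.

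Log2 ratios that changed sign were Top2a for UUO day 7 against day 2 (5.16 with the 20% limit, 0.24 with at least 5 Slc12a3 UMIs) and, for reversal against UUO day 7 with the 20% limit, Calb1 (-0.15), Ckb (-0.34), Cnnm2 (-0.12), Kl (-0.47) and Ppp1r1a (-0.19). The cause was not tested in any of these. Of 850 values of single genes under alternatives of the tests, 742 kept direction and call, 53 lost the call and 16 gained one. The other 39 changed sign and belonged to genes without a call in the main test. Among genes with a call 0 changed sign. Of 1867 values of the time comparisons, 1612 stayed within their counting interval, 248 moved and 7 changed sign.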
